A study of Mus musculus with 48 samples.

Results

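Enteroendocrine cells are scattered among absorptive enterocytes, and transcripts of the enterocyte can be read in a library of sorted enteroendocrine cells. The levels of 10 enterocyte genes were followed in sorted cells of the mouse gut, namely the apolipoprotein genes Apoa1, Apoa4, Apob and Apoc3, the lipid transfer protein gene Mttp, the fatty acid binding protein genes Fabp1 and Fabp2, and the brush border enzyme genes Alpi, Anpep and Sis. They were taken by symbol from a count table of 53465 Ensembl genes, and were chosen with earlier results of these data known. All 10 were present and passed the filter on low counts that left 15126 genes for testing. The 48 libraries came from 17 lean male Neurod1-cre-eYFP mice on a C57BL6 background, in which cells that had expressed NeuroD1 carried the reporter and were purified by flow cytometry after exclusion of dead and CD45-positive immune cells. Each mouse gave up to 3 libraries, from the first 5 cm of the small intestine (duodenum), the last 15 cm (ileum) and the large bowel with the rectum (colon).

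The mice were about 20 weeks old at surgery, and tissue was collected 6 weeks later, about 15 min after an oral glucose load of 3 g/kg. VSG mice (6 animals) had most of the stomach removed by vertical sleeve gastrectomy. Sham ad libitum mice (6 animals) and sham weight-matched mice (5 animals), the latter held to the weight of the VSG mice, had a suture placed with the stomach left whole. All 3 groups carried the same transgenes, were returned to chow from a liquid diet used around surgery, and were fasted overnight before the glucose load. VSG mice alone received weekly vitamin B12. Every region was represented by 6 VSG libraries and 5 of each sham group, and 15 mice had all 3 regions. A reporter driven by Cre marks every cell descended from one that once expressed NeuroD1, and no negative fraction of the sort was analysed here.

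Dietary fat is taken up by the enterocyte as fatty acids, which Fabp1 and Fabp2 bind in the cytosol, and is re-esterified in the endoplasmic reticulum. Mttp, the microsomal triglyceride transfer protein, loads this lipid onto Apob, the structural protein of the chylomicron, and Apoa1, Apoa4 and Apoc3 join the particle as exchangeable apolipoproteins. Alpi (intestinal alkaline phosphatase), Anpep (aminopeptidase N) and Sis (sucrase-isomaltase) sit on the microvilli, where they dephosphorylate, trim peptides and split disaccharides. Fat is absorbed mainly in the proximal small intestine, and the colon does not normally form chylomicrons.

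Apoa1 (chromosome 9, 46228580 to 46230466), Apoc3 (46232933 to 46235636) and Apoa4 (46240696 to 46243459) lie side by side in the GENCODE M21 annotation of GRCm38, with Apoc3 on the minus strand and the other two on the plus strand. Apob lies on chromosome 12, Fabp1 on chromosome 6, Fabp2, Mttp and Sis on chromosome 3, Alpi on chromosome 1 and Anpep on chromosome 7. The exons of Apoa4 and Mttp overlap genes on the opposite strand. The library kit kept the strand of the RNA, but whether the counting used it was not stated, so the counts of Apoa4 and Mttp are uncertain to that extent. Alpi has a close paralogue beside it in the alkaline phosphatase family, Akp3, and reads shared by both could have been divided between them or dropped.

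RefSeq promoter sequences (GRCm38.p6) were matched for 9 of the 10 genes, all but Apoc3. The 250 bases before each RefSeq start were searched on both strands for short motifs of factors known from enterocytes. The windows of Mttp and Anpep lay wholly inside the GENCODE span of the gene, and those of Apoa1, Apoa4, Apob and Fabp1 partly. Those of Fabp2, Alpi and Sis ended at its edge. The counts below hold for these windows only. The CDX motif TTTATTG was found in 2 of the 9 promoters, against 4.2% of 32851 promoters in the table. The HNF4A motif CAAAGTCCA, from another enterocyte factor, was found in 1 of the 9, against 0.384% of all promoters. The GATA motif AGATAA (9.99% of all promoters) and the palindromic HNF1 consensus (0.00913%) were in 0 of the 9 windows, which says only that these letters were not there. The 3 windows with a match are shown, and the genes behind them differed in their pattern along the gut. Fabp2 had its highest median in the ileum and differed least of the 10 between colon and duodenum. Alpi was lower in the ileum than in the duodenum, and Sis was the hydrolase of the 3 whose small intestinal regions were closest. Anpep, which also had its highest median in the ileum, and Fabp1, which was also lower there, had no match. Whether a match goes with a pattern was not tested. Capitals mark the match, and positions count back from the base before the start, which is position -1.
Fabp2 (chr3:122894822-122895071, plus strand, CDX at position -65): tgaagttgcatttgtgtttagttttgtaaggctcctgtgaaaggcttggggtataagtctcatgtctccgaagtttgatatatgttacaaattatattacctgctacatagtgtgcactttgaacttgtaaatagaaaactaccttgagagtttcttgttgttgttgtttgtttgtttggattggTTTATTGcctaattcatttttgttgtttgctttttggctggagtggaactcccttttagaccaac
Sis (chr3:72967864-72968113, minus strand, CDX on the opposite strand at position -52): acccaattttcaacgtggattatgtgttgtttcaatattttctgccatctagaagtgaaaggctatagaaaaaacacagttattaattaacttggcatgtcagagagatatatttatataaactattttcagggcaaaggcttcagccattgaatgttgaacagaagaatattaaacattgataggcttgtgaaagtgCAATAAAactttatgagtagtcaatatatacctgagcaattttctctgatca
Alpi (chr1:87101607-87101856, minus strand, HNF4A at position -19): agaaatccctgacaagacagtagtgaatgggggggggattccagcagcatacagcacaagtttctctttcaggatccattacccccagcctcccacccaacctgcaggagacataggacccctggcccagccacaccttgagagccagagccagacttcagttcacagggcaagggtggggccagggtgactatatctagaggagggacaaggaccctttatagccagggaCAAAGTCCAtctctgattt
A match is a description of the sequence and was not taken as a bound site.

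Total counts per library were between 4648651 and 17182463, with a median of 6713018. Levels are given as CPM, a gene's counts per megacount of its library, with the library total scaled by edgeR's TMM method to correct for differences in composition. Chga, a granin of secretory granules and a marker of the sorted cells, was abundant in all 3 regions. Its median was 17620 CPM in the duodenum, 17260 CPM in the ileum and 19910 CPM in the colon. The lowest of the 48 libraries had 3889 CPM. Other enteroendocrine markers were less even between regions, as given below. Neurod1 itself was present at a median of 669 CPM in the duodenum, 385 CPM in the ileum and 244 CPM in the colon. The pancreatic acinar list of 6 genes summed to at most 1.24 CPM in any library. Mouse 12, a sham ad libitum mouse, has crossed labels for its ileum and colon libraries, and the tissue label was used. By that label 8 of the 10 enterocyte genes in its ileum library and 9 of 10 in its colon library lay within the range of the other 15 libraries. In its ileum library all 10 lay above the colon libraries of every other mouse (Apoa1 at 2879 CPM against at most 131.6 CPM). In its colon library all but Fabp2 lay below the ileum libraries of every other mouse.

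One library stood apart in these genes, the duodenum library of sham weight-matched mouse 27. It was the highest of the 16 duodenum libraries for all 10 genes, from 2.02 times the median of the other 15 for Sis to 13.1 times for Alpi. Apoa4 was at 14660 CPM in it, against 828.9 to 5044 CPM in the other 15, and Fabp2 was at 2757 CPM, against 104 to 519 CPM. The 12 enteroendocrine marker genes summed to 12230 CPM in this library, the lowest of the 16, against 39440 to 75150 CPM in the others. Its Paneth cell markers summed to 4049 CPM (129 to 880.3 CPM in the others), its immune markers to 48.3 CPM (0.867 to 17.7 CPM), and its colonocyte, goblet and tuft cell sums were also the highest, whereas its stromal sum was the lowest. The scaling bears on the size of this gap, since the TMM factor of the library was 0.617. On total counts alone, Alpi was at 2121 CPM against a median of 288 CPM, and Sis at 2248 CPM against 2007 CPM. The ileum and colon libraries of mouse 27 held 1.1% and 0.0648% of their counts in the 10 genes, within the range of the other mice, and its duodenum library held 3.21%. The main comparisons and correlations of the 10 genes in the duodenum are therefore given with and without this library. Unless stated otherwise, it is included in the shares, the levels per kilobase, the other gene lists and the ranking by likeness.

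**Figure D1:**
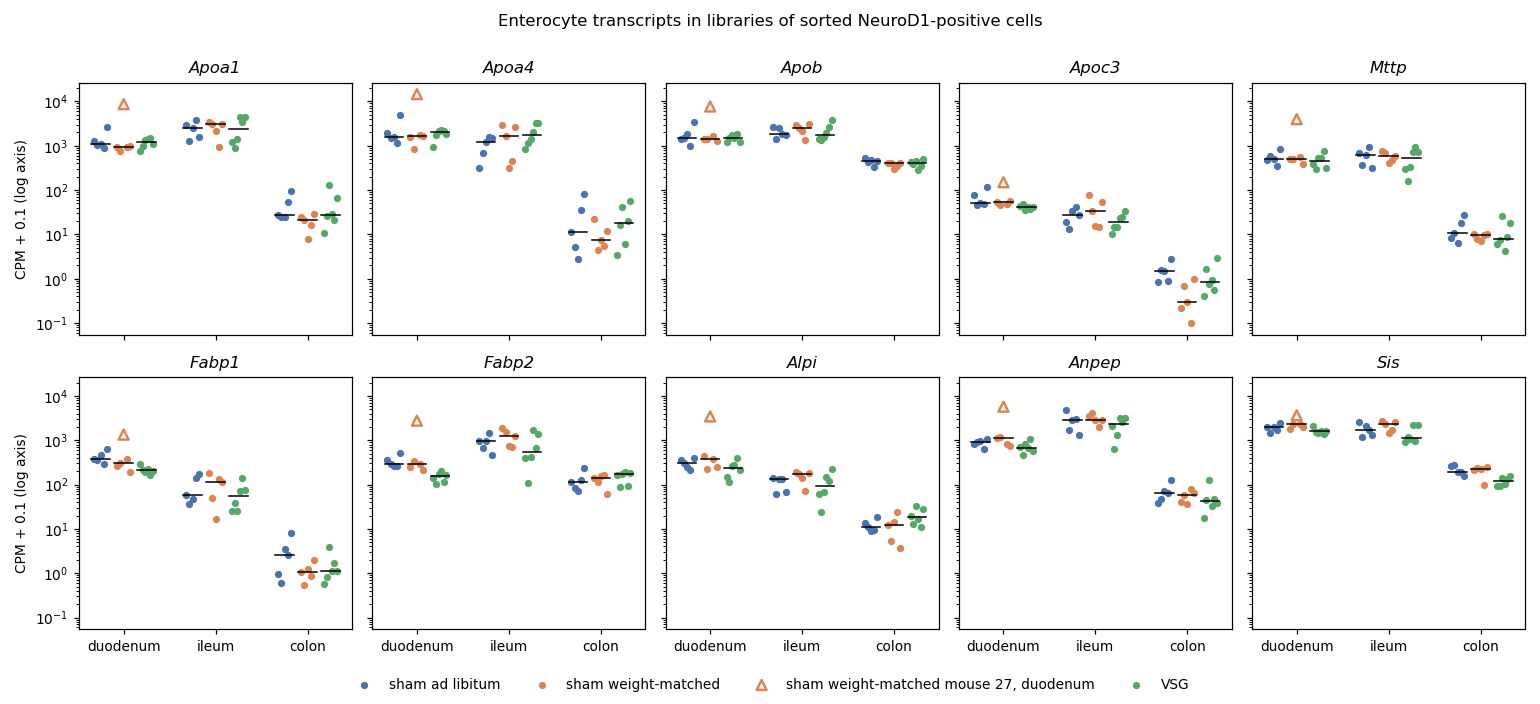
Level of each of the 10 genes in the 48 libraries (vertical log axis, CPM plus 0.1, so that 0 counts can be drawn) by region and surgery group, with 1 point per library and a bar at the group median. The open triangle is the duodenum library of sham weight-matched mouse 27, above every other duodenum library in all 10 panels, and the colon libraries sit below those of the small intestine in 8 panels, with overlap for Fabp2 (both regions) and Alpi (ileum).

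Together the 10 genes held a median of 0.909% of all counts in the duodenum (0.702% to 3.21%), 1.18% in the ileum (0.611% to 1.72%) and 0.0887% in the colon (0.0605% to 0.118%). The range of the colon did not touch that of either part of the small intestine. The mixture also differed. In the duodenum Apoa4 and Sis each made up the largest part of these counts, 21.4% ± 5.14 and 21% ± 6.03 (SD, n = 16). In the ileum Anpep (21.2% ± 5.6) and Apoa1 (19.7% ± 3.79) led, and in the colon Apob alone held 47.7% ± 6.4, with Sis at 20.4% ± 7.12 and Fabp2 at 15.7% ± 5.79. In libraries of pooled cells, fewer cells with these transcripts and less of them per cell cannot be told apart. Which cells held them was not tested.

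On the scale of CPM per kilobase of exon, which allows genes to be compared with each other, Apoa4 (mean 1479 ± 1834 SD) and Apoa1 (1334 ± 1561) were the highest of the 10 in the duodenum, and Apoc3 was the lowest (58.1 ± 30.7). These spreads are wide because they include the library of mouse 27, and neighbours in the order overlapped throughout. Apoa4 ranked 23 and Apoa1 ranked 24 of 15114 genes by this mean, and Fabp1 ranked 35. In the ileum Apoa1 (2071 ± 993.9) was the highest, followed by Fabp2 (985 ± 530.1) and Apoa4 (875 ± 556), which did not differ beyond their spread, and Apoc3 (27.5 ± 17.2) was again the lowest. In the colon Fabp2 had the highest mean at 139.5 ± 51.2, and its libraries lay above all those of Apob (29.4 ± 5.02) and Sis (23.6 ± 8.72) but overlapped those of Apoa1 (30.6 ± 26.9). Apoa1, Apob and Sis overlapped each other. Fabp2 ranked 143 of 15114 in the colon, whereas Fabp1 ranked 7770, Mttp 9684 and Apoc3 11483.

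The particle proteins were abundant in both parts of the small intestine. Apoa1, the main protein of high density lipoprotein and a chylomicron component, ranged from 754 to 8680 CPM in the duodenum with a median of 1051, and from 875 to 4483 CPM in the ileum with a median of 2668. In the colon it ranged from 7.68 to 132 CPM with a median of 25.3. Apoa4, which is made in the gut in step with fat absorption, ranged from 828.9 to 14660 CPM in the duodenum (median 1751), from 312.5 to 3298 CPM in the ileum (median 1448) and from 2.67 to 80.7 CPM in the colon (median 11.3). No colon library reached the lowest library of the small intestine for either gene.

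Apob ranged from 979 to 7691 CPM in the duodenum (median 1478), from 1316 to 3794 CPM in the ileum (median 2028) and from 290.4 to 529 CPM in the colon (median 418). Its colon libraries were close together, with a coefficient of variation of 17.1%, against 87.9% for Apoa1 and 109% for Apoa4 in the same libraries. Apoc3, an inhibitor of lipoprotein lipase, was the scarcest of the 10, from 35.1 to 150.2 CPM in the duodenum (median 48.5), from 10 to 76.3 CPM in the ileum (median 23.9) and from 0 to 2.81 CPM in the colon (median 0.749). Its 16 colon libraries held 100 counts in all, and 1 of them, sham weight-matched mouse 29, held 0 counts, which allows a level of up to 0.539 CPM on total counts (3 counts, counting error only). Mttp ranged from 300 to 3988 CPM in the duodenum (median 507), from 161 to 937 CPM in the ileum (median 603) and from 4.19 to 27.9 CPM in the colon (median 9.07).

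The fatty acid binding proteins moved apart along the gut. Fabp1, the form shared with the liver, ranged from 167 to 1337 CPM in the duodenum (median 295), from 16.2 to 184 CPM in the ileum (median 65.2) and from 0.432 to 7.93 CPM in the colon (median 1.02), where its libraries held 3 to 35 counts each. Fabp2, the intestinal form, ranged from 104 to 2757 CPM in the duodenum (median 255), from 109 to 1840 CPM in the ileum (median 858) and from 59.5 to 232 CPM in the colon (median 134). The colon range of Fabp2 overlapped both others. Among mice with all 3 regions, Fabp2 was higher in the ileum than in the duodenum in 13 of 15 and Fabp1 was lower in 15 of 15.

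Of the brush border enzymes, Alpi ranged from 116 to 3444 CPM in the duodenum (median 268), from 23.4 to 227 CPM in the ileum (median 132) and from 3.53 to 32.9 CPM in the colon (median 13). Anpep ranged from 454 to 5712 CPM in the duodenum (median 829.1), from 638 to 4920 CPM in the ileum (median 2818) and from 17.1 to 129 CPM in the colon (median 47.5). Sis ranged from 1389 to 3650 CPM in the duodenum (median 1908) and from 907 to 2695 CPM in the ileum (median 1707), and from 90.5 to 283 CPM in the colon (median 173). Its coefficient of variation in the duodenum, 28.6%, was the lowest of the 10, against 166% for Alpi and 158% for Fabp2. Without the library of mouse 27 it was 18.8%, still the lowest, against 34.4% for Alpi and 43.9% for Fabp2.

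The fall in the colon held for all 10 genes. Each difference was estimated by edgeR's quasi-likelihood method over the 15126 genes, averaged over the 3 surgery groups, with Benjamini-Hochberg adjustment at 0.05. Against the duodenum, all 10 were lower in the colon, where 28.3% of all tested genes were called lower, 26.8% higher and 55% in either direction. The members' log2 fold changes had a median of -5.19, against -0.01 over all tested genes. The largest was that of Fabp1, at -7.74 (SE 0.43, adjusted p = 5.5e-19), followed by Apoa4 at -7.10 (SE 0.56) and Apoc3 at -6.10 (SE 0.31). Mttp was at -5.88, Apoa1 at -5.52, Alpi at -4.86, Anpep at -4.19, Sis at -3.50 and Apob at -2.25. Fabp2 changed least, by -1.35 (SE 0.31, adjusted p = 0.000276), and 13 of 15 mice showed its direction, whereas each of the other 9 was lower in 15 of 15 mice. Every colon library lay below every duodenum library for 9 of the 10, all but Fabp2, while 4.99% of tested genes were separated in this way. Without the duodenum library of mouse 27, all 10 were still called, and the fold change of Fabp2 was -0.84.

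Against the ileum, all 10 were lower as well (25.4% of tested genes were called lower, 23.8% higher and 49.2% in either direction), with a median log2 fold change of -5.25 against -0.01 over all tested genes. Apoa4 (-6.32, SE 0.54), Apoa1 (-6.20, SE 0.42) and Fabp1 (-5.65, SE 0.41) changed most, and Apob (-2.42, SE 0.20) and Fabp2 (-2.83, SE 0.33) least. Each gene was lower in 15 of 15 mice, and the libraries did not overlap for 8 of the 10, all but Fabp2 and Alpi, against 3.46% of tested genes. The first index of the library partly followed the region. Among libraries of a single index that had both regions (4 from the colon, 8 from the ileum), all 10 genes were separated without overlap, from a mean log2 difference of -2.24 for Apob to -5.82 for Apoa1. Colon and duodenum shared an index only through 1 colon library, that of mouse 12, beside 4 duodenum libraries. No comparison within an index was made for them.

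**Figure D2:**
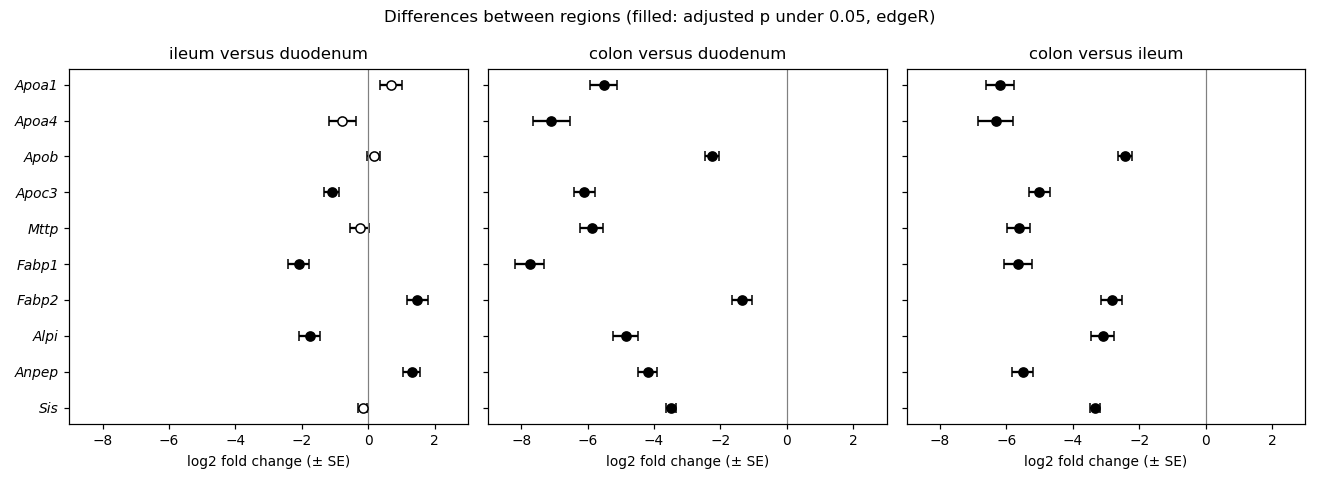
Log2 fold change (horizontal axis) of each gene between regions by edgeR, averaged over surgery groups, with bars of 1 standard error and filled points at adjusted p under 0.05. In both comparisons with the colon all 10 points are filled and below 0, from -1.35 to -7.74, whereas between ileum and duodenum 3 are filled below 0 and 2 above.

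Between ileum and duodenum the genes went different ways. Fabp1 (log2 fold change -2.10, SE 0.31, adjusted p = 7.5e-07), Alpi (-1.76, SE 0.32, adjusted p = 2.33e-05) and Apoc3 (-1.10, SE 0.22, adjusted p = 0.000101) were lower in the ileum by edgeR. Fabp2 (1.48, SE 0.31, adjusted p = 0.000215) and Anpep (1.31, SE 0.26, adjusted p = 0.000107) were higher. These are 5 of the 10 members, against 33.8% of all tested genes called (17.2% higher and 16.6% lower). The members' median was -0.21, against 0.00 over all tested genes. Apoa1 (0.68, SE 0.33), Apoa4 (-0.78, SE 0.42), Apob (0.17, SE 0.19), Mttp (-0.25, SE 0.28) and Sis (-0.16, SE 0.14) did not pass the threshold, and 0 of the 10 had ileum and duodenum libraries that did not overlap (0.502% of tested genes lay wholly higher in the ileum and 0.959% wholly lower). DESeq2 also called 5 members.

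This comparison changed when 1 library was left out and when the first index was a covariate. Without the duodenum library of mouse 27, Apoa1 (1.16, SE 0.29, adjusted p = 0.0013) and Apob (0.46, SE 0.14, adjusted p = 0.00783) were called higher in the ileum as well, and Mttp went from -0.25 to 0.18. With the first index as a covariate, Apob turned to -0.83 (adjusted p = 0.0463) and Apoa1 to -0.50, Anpep (0.29) and Fabp2 (0.43) lost their call, and Apoa4 (-1.99, adjusted p = 0.0409) and Mttp (-1.40, adjusted p = 0.0287) passed it. The index with most libraries of both regions held 7 from the ileum and 4 from the duodenum, of which 1 was that of mouse 27. Among them the mean log2 differences were 0.50 for Anpep, 0.29 for Fabp2, -0.01 for Apoa1 and -0.49 for Apob. Without mouse 27 these libraries gave -2.51 for Fabp1 and -1.90 for Alpi, without overlap. They gave -1.39 for Apoc3, 1.16 for Anpep, 0.62 for Apoa1 and 0.01 for Apob, with overlap. The covariate fit kept mouse 27 and so does not separate the index from this library. Fabp2 had a median of 1431 CPM in these ileum libraries and 356 CPM in the duodenum ones, with overlap. Fabp1, Alpi and Apoc3 kept their call in every fit of this comparison that was run.

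The wider enterocyte programme was read from 4 lists that do not contain the 10 genes. Of 24 genes of lipid absorption and chylomicron assembly, 23 were tested. Between colon and duodenum 21 of them were lower and 1 was higher by edgeR, with a median log2 fold change of -2.27. Npc1l1, the cholesterol uptake transporter, was at -5.92 (SE 0.32), Abcg8, which returns sterols to the lumen, at -4.77 (SE 0.34), and Creb3l3, a transcription factor of lipid handling, at -4.68 (SE 0.32). Plin2, a coat protein of lipid droplets, was the gene that was higher in the colon, at 0.57 (SE 0.08). Between ileum and duodenum 2 were higher and 4 lower, led by Fabp6, the ileal bile acid binding protein (6.41, SE 0.50), and by Cd36, a fatty acid transporter (-1.94, SE 0.26).

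All 18 brush border hydrolases were tested, and between colon and duodenum 16 were lower and 2 higher, with a median of -2.74. Tmprss15, the enteropeptidase that activates trypsinogen, was at -8.01 (SE 0.58), Akp3 at -8.00 (SE 0.53) and Lct, lactase, at -6.09 (SE 0.56), whereas Mep1a, a meprin subunit, was higher at 1.91 (SE 0.21). Between ileum and duodenum 10 hydrolases were higher and 4 lower. Akp3 was at -8.08 (SE 0.53) in that comparison and had a median of 393 CPM in the duodenum and 1.57 CPM in the ileum, whereas the log2 fold change of its paralogue Alpi was -1.76.

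Of 14 enterocyte transporters, colon against duodenum, 9 were lower and 2 higher (median -2.21), and Slc26a6, an anion exchanger, was at -5.90 (SE 0.45). Slc10a2, the bile acid transporter of the ileum, was above its duodenal level in the ileum (5.75, SE 0.45) and the colon (4.49, SE 0.44). The 12 genes of microvillus structure had 7 lower and 1 higher between colon and duodenum, with a median of -0.33. Vil1, villin, was at -0.97 (SE 0.15) there. In the same comparison 10 of 10 colonocyte genes were higher (median 3.35), as were 5 of 8 goblet cell genes (median 2.97), and 6 of 7 Paneth cell genes were lower (median -6.06). Of the 12 enteroendocrine genes 8 were lower and 1 was higher (median -1.59). The higher one was Chga, at 0.37 (SE 0.16). Scg2, another granin, was at -5.10 (SE 0.24), Isl1 at -3.40 (SE 0.23), Pcsk1 at -3.04 (SE 0.14) and Neurod1 at -1.35 (SE 0.15). The summed level of that list had overlapping ranges in the colon (29650 to 100000 CPM) and the duodenum (12230 to 75150 CPM). The part of these cell types in the fall of the 10 genes was not tested.

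Surgery was compared next, with libraries of different mice in each group. VSG mice are set against sham ad libitum mice for the whole effect of the operation and against sham weight-matched mice for the effect beyond body weight, and these comparisons share the same VSG libraries. Against sham ad libitum mice edgeR called 0 of the 10 members in each of the mean of the regions, the duodenum, the ileum and the colon, where 0% of tested genes were called, and DESeq2 and limma voom also called 0. At an unadjusted p under 0.05 stood 2 members in the mean of the regions (5.53% of tested genes), 1 in the duodenum (2.45%), 1 in the colon (6.28%) and 0 in the ileum (6.16%). Without the duodenum library of mouse 27 the duodenum had 3, Fabp2 at -1.18, Fabp1 at -0.97 and Apoc3 at -0.74, each at an adjusted p of 1 by edgeR. Over all genes 460 were at an unadjusted p under 0.05 in that fit. The 6 VSG duodenum libraries shared their first index with only 2 of the sham ad libitum ones. Within that index the mean log2 difference was -0.84 for Fabp2, without overlap. It was -0.78 for Fabp1 and -0.31 for Apoc3, with overlap. The interaction of surgery and region gave 0 members by edgeR, DESeq2 and voom (0% of tested genes). The share of all tested genes at an unadjusted p under 0.05 was not taken there, and Fabp2 and Alpi were the members at that level. Without the duodenum library of mouse 27 neither was, and Apoc3 was the 1 member under 0.05 (adjusted p = 0.957 by edgeR), among 770 genes over all. A difference in response between regions was thus not shown for any member.

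Sis was the member called with VSG in the mean of the regions, at a log2 fold change of -0.66 (SE 0.14, adjusted p = 0.0153 by edgeR) against sham weight-matched mice, where 0.245% of tested genes were called. At an unadjusted p under 0.05 there were 3 members (9.92% of tested genes), and 1 without the duodenum library of mouse 27, among 1539 genes over all. In the colon Sis was at 157, 190.2, 192, 268 and 283 CPM in the sham ad libitum libraries and at 95.1, 209.8, 229, 237 and 247 CPM in the sham weight-matched libraries. The 6 VSG colon libraries ran from 90.5 to 153.5 CPM with a median of 117, below every sham ad libitum library (0.192% of tested genes lay wholly below) and overlapping the sham weight-matched group through mouse 29.

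In the ileum Sis was at 1179, 1342, 1743, 2061 and 2522 CPM in sham ad libitum, at 1469, 1671, 2304, 2625 and 2695 CPM in sham weight-matched and from 907 to 2172 CPM (median 1137) in VSG libraries. In the duodenum it was at 1446, 1662, 2009, 2033 and 2484 CPM in sham ad libitum, at 1806, 2009, 2295, 2335 and 3650 CPM in sham weight-matched and from 1389 to 2052 CPM (median 1587) in VSG libraries. The groups overlapped in both regions, and the VSG median was the lowest of the 3 in each.

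By region, the log2 fold change of Sis against sham weight-matched mice was -0.58 (SE 0.24) in the duodenum, -0.61 (SE 0.24) in the ileum and -0.78 (SE 0.24) in the colon, none past the threshold alone. Against sham ad libitum mice it was -0.25, -0.32 and -0.89, and -0.49 (SE 0.14, adjusted p = 0.283 by edgeR) in the mean of the regions. Without the duodenum library of mouse 27 the mean over regions against sham weight-matched mice was -0.60 (SE 0.13, adjusted p = 0.0307). The call was lost without mouse 18, 21 or 28 (adjusted p from 0.0504 to 0.0621), with no filter on low counts (adjusted p = 0.0581), with limma voom and the mouse as a random block (adjusted p = 0.133), with counts summed per mouse (adjusted p = 0.475) and with mouse 12 assigned by its description code (adjusted p = 0.467). The last of these puts a library with Sis at 2522 CPM in the colon, where those of the other mice reached 283 CPM. The fold change lay between -0.57 and -0.75 in all fits, and DESeq2 also called Sis (-0.67, adjusted p = 0.00106). With the first index as a covariate it was -0.62 (adjusted p = 0.0338), and within an index the mean log2 differences were -0.39 in the duodenum, -0.82 and -0.59 in the ileum and -0.67 in the colon.

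Fabp2 was the member called in the duodenum against sham weight-matched mice, at -2.36 (SE 0.53, adjusted p = 0.0463 by edgeR, with 0.225% of tested genes called). It was at 218, 253, 293, 342 and 2757 CPM in the sham weight-matched libraries, the last being mouse 27. The sham ad libitum libraries were at 257, 268, 288, 356 and 519 CPM, and the 6 VSG libraries ran from 104 to 200.1 CPM with a median of 152. All VSG libraries lay below all libraries of both sham groups, as 0.304% of tested genes did against sham weight-matched and 0.291% against sham ad libitum mice. Without the library of mouse 27 the fold change was -0.89 (SE 0.43) and the call was lost (adjusted p = 1), while on all libraries DESeq2 called 2 members, Fabp2 and Alpi, and voom called 0. Against sham ad libitum mice Fabp2 was at -1.17 (SE 0.52, adjusted p = 1). All VSG duodenum libraries and the sham weight-matched ones other than that of mouse 27 had the same first index, and within it Fabp2 was still separated, with a mean log2 difference of -0.90. In the ileum and colon the VSG range of Fabp2 overlapped both sham groups.

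Alpi followed the same library. It was at 227, 245, 375, 447 and 3444 CPM in the sham weight-matched duodenum libraries, at 211, 252, 308, 366 and 403 CPM in the sham ad libitum ones and from 116 to 399 CPM (median 238.5) after VSG, with all groups overlapping. Its log2 fold change of -2.01 (SE 0.53, adjusted p = 0.0768 by edgeR) against sham weight-matched mice went to -0.46 without mouse 27. Across the 10 members this comparison had a median of -1.17 with 8 at an unadjusted p under 0.05 (8.71% of tested genes), and without that library a median of -0.36 with 1, Fabp2. Apoa1, Apoa4 and Apob were above 0 in the smaller fit, and over all genes the count of edgeR calls went from 34 to 0, with 509 genes at an unadjusted p under 0.05. The other tools were not run without this library.

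The same library moved sham weight-matched against sham ad libitum mice in the duodenum. The median log2 fold change of the members was 0.84 with it, with all 10 above 0, and -0.31 without it. EdgeR, DESeq2 and voom called 0 members between the sham groups in the mean of the regions (0.0529% of tested genes), the duodenum (0%), the ileum (0%) and the colon (0.0132%), with 1 (6.39% of tested genes), 4 (6.55%), 0 (7.85%) and 1 (3.66%) members at an unadjusted p under 0.05. Without the library of mouse 27 these were 0, 0, 0 and 2, among 936, 417, 1437 and 673 genes over all. In the ileum (0.0463% of tested genes called) and the colon (0.0595%) the comparison of VSG with sham weight-matched mice also gave 0 members by all 3 tools, with 2 in each at an unadjusted p under 0.05 (6.38% and 3.65% of tested genes). In that ileum comparison the members' median was -0.49, with Apoc3 at -0.97 (SE 0.38). In the colon it was 0.45, with Sis at -0.78 the lowest and Apoc3, which rests on 100 counts, at 1.47 (SE 0.81) the highest.

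**Figure D3:**
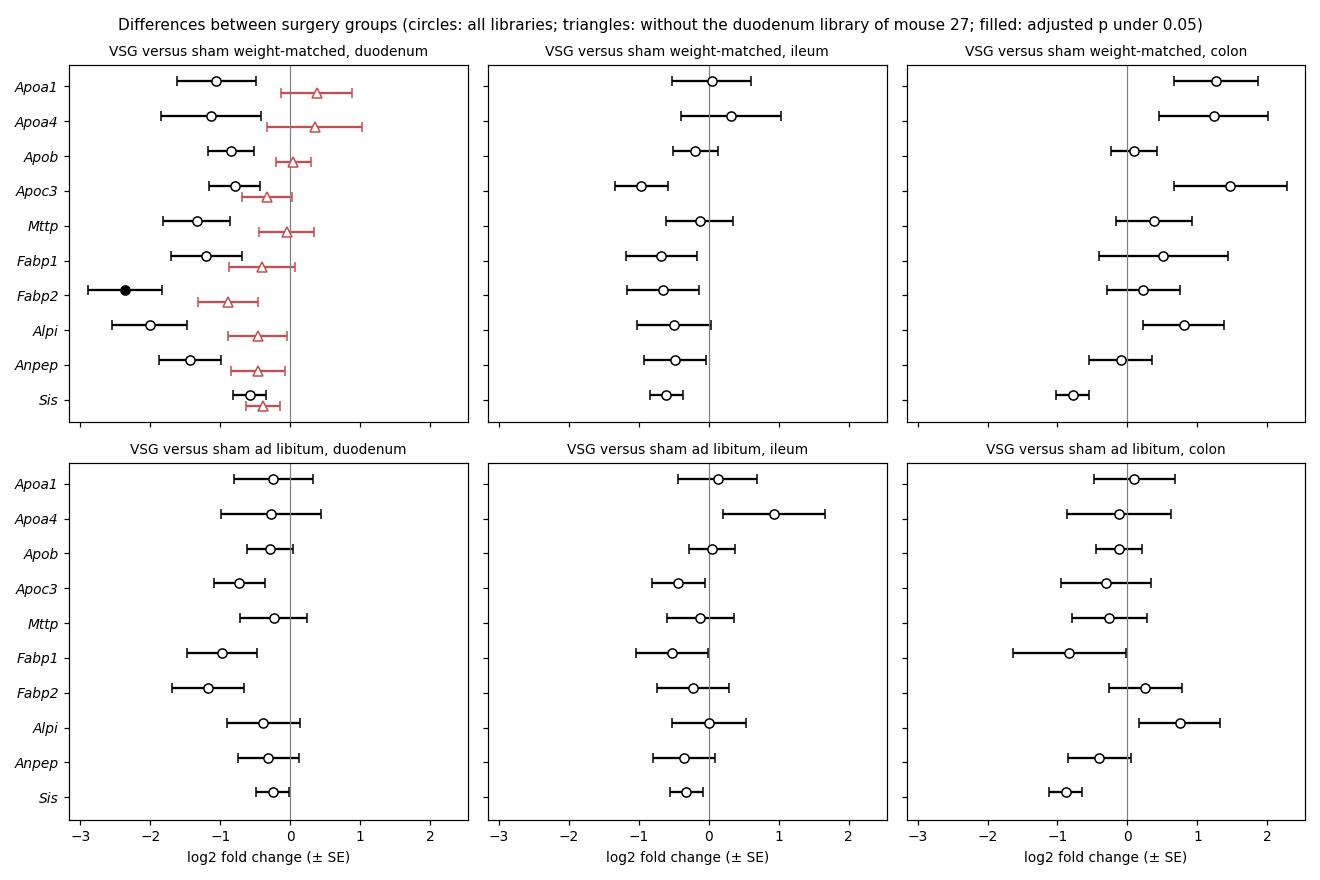
Log2 fold change (horizontal axis) of each gene after VSG against sham weight-matched (upper row) and sham ad libitum mice (lower row) in each region by edgeR, with bars of 1 standard error. Filled circles passed adjusted p under 0.05, which only Fabp2 at -2.36 did, and the triangles leave out the duodenum library of mouse 27, which brought Fabp2 to -0.89 and Alpi from -2.01 to -0.46.

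Of the 4 enterocyte lists, 1 gene was called in any surgery comparison. Slc40a1, ferroportin, the iron exporter of the basolateral membrane, was at -2.76 (SE 0.51, adjusted p = 0.0117 by edgeR) after VSG against sham weight-matched mice in the duodenum. Without the library of mouse 27, where it was at 685 CPM against 18.9 to 56 CPM in the other 15, it was at -0.84 (SE 0.31, adjusted p = 1). In the same comparison 2 of 7 Paneth cell markers were called lower on all libraries, and 0 of 12 enteroendocrine markers were called (0.225% of tested genes were called). The library of mouse 27 had the highest Paneth sum of the 16 duodenum libraries, at 4049 CPM. Without it edgeR called 0 genes in this comparison.

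Within a region, the question was whether the members rise and fall together from library to library. Pearson's r was taken over log2 CPM of the 16 libraries for the 45 pairs of members in each region. Permutation p-values from 100000 resamples were adjusted over all pairs of the 3 regions. Pairs of other genes were not taken, so whether more member pairs passed than pairs of genes at large was not tested. In the ileum the median r was 0.668, all 45 pairs were above 0, and 29 pairs passed the threshold by r and 30 by Spearman's rho. The highest were Fabp2 with Alpi (r = 0.927, rho = 0.885, permutation p = 2e-05, adjusted p = 0.000337) and Alpi with Anpep (r = 0.907, rho = 0.832, permutation p = 2e-05, adjusted p = 0.000337). Apoa4 with Anpep had the lowest (r = 0.052, rho = 0.253, permutation p = 0.848). When the 2 libraries farthest from the median were left out of each pair, the median was 0.683 and all 45 remained above 0. Within the 2 indices that held 7 and 8 ileum libraries the median r was 0.815 and 0.705.

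In the duodenum the median r was 0.812 and 44 of 45 pairs passed, but this rested on mouse 27. Without its library the median was 0.482 and 14 pairs passed, and with the 2 farthest libraries left out of each pair on all 16 the median was 0.28. The rank correlation, which limits the pull of 1 library, passed in 16 pairs with it and in 9 without it. Apoa1 with Apoa4, neighbours on chromosome 9, had r = 0.977 with mouse 27 (permutation p = 1e-05, the smallest that the resamples can give) and r = 0.946 without it, while Apoa4 with Sis went from 0.552 to -0.00.

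In the colon the median r was 0.296, 39 of 45 pairs were above 0, 11 passed above 0 by r and 6 by rho, and 1 passed below 0 by r. Apoa4 with Mttp (r = 0.83, rho = 0.75, permutation p = 7e-05, adjusted p = 0.000591) and Apoa1 with Mttp (r = 0.819, rho = 0.629, permutation p = 0.00017, adjusted p = 0.000998) were the closest. Fabp2 with Alpi had r = 0.758. The negative pair was Alpi with Sis (r = -0.559, permutation p = 0.0242, adjusted p = 0.039, and adjusted p = 0.0597 by rho). On residuals from the surgery group means 0 colon pairs passed below 0, and the lowest r of any pair was -0.37. The 2 farthest libraries left the colon a median of 0.143. Libraries of a region share the depth scaling, and on total counts without TMM the median r was 0.675 for duodenum, 0.587 for ileum and 0.301 for colon libraries.

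**Figure D4:**
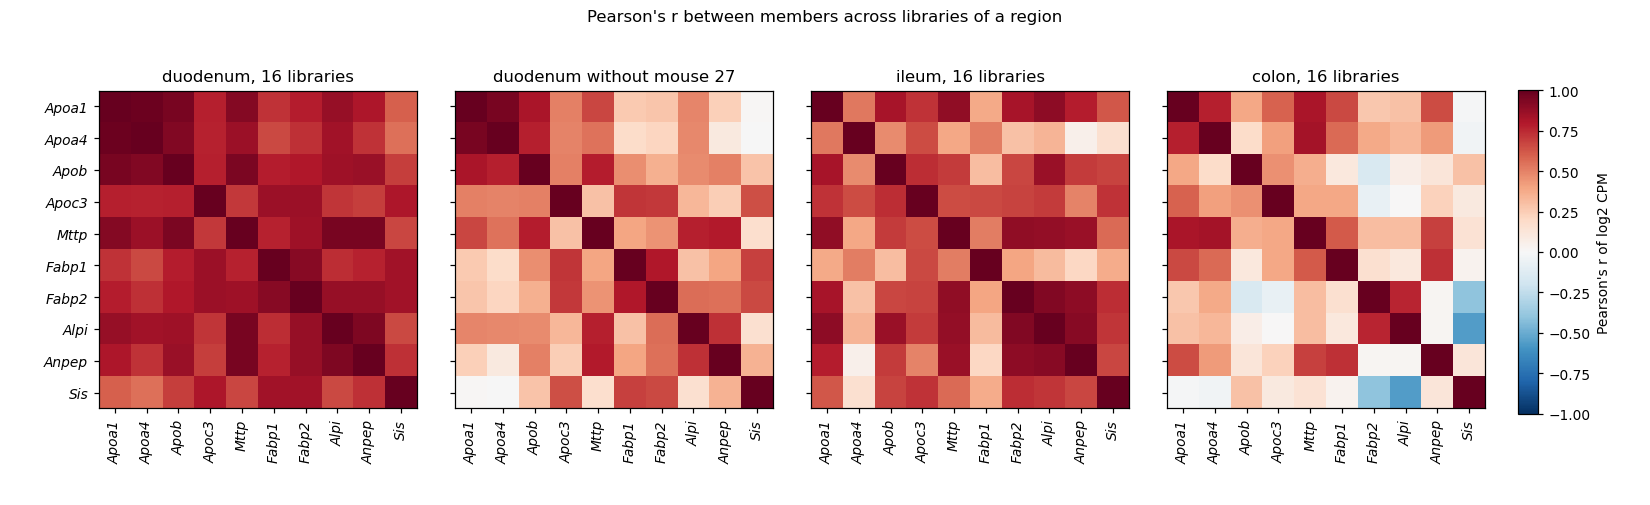
Pearson's r of log2 CPM between every pair of the 10 genes across libraries of a region, from -1 (blue) to 1 (red), with the diagonal at 1. The duodenum is shown with and without the library of mouse 27, and its median r goes from 0.812 to 0.482, against 0.668 in the ileum and 0.296 in the colon. Alpi with Sis is at -0.559 in the colon, where differences between surgery groups were left in.

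The genes most like the 10 in pattern were ranked by Pearson's r with the mean of the members' log2 levels. Over the 48 libraries, which mainly follows the region, the first 8 were Creb3l3 (r = 0.986), Ms4a10 (0.982), Treh, Fbln1, Bst1, Npc1l1, Mme and Rbp2 (the last 4 at 0.977), while the median over 15116 other tested genes was 0.02 and their 95th percentile was 0.766. Creb3l3 was at a mean of 128 CPM in the duodenum, 100 CPM in the ileum and 5.07 CPM in the colon. After removal of the 9 group means, which leaves the differences between mice, the first 8 were Bst1 (0.907), Treh (0.905), Slc5a11, Mme, Slc2a2, Dnase1, Slc7a15 and Ace (0.863), against a median of -0.02 and a 95th percentile of 0.564. Both rankings include the duodenum library of mouse 27 and were not repeated without it. Treh is trehalase and Mme and Ace are peptidases of the brush border, and Slc2a2 is a sugar transporter of the enterocyte. Of the genes that define the sorted cells, Scg2 was at 0.883, Neurod1 at 0.566, Chgb at -0.189 and Chga at -0.443 over the 48 libraries. After removal of the group means Chga was at -0.614, Chgb at -0.59, Neurod1 at -0.504 and Scg2 at -0.342, and without the duodenum library of mouse 27 these were -0.397, -0.373, -0.157 and -0.09. These values describe 48 libraries from 17 mice that share a scaling, and no test was made of them.

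**Figure D5:**
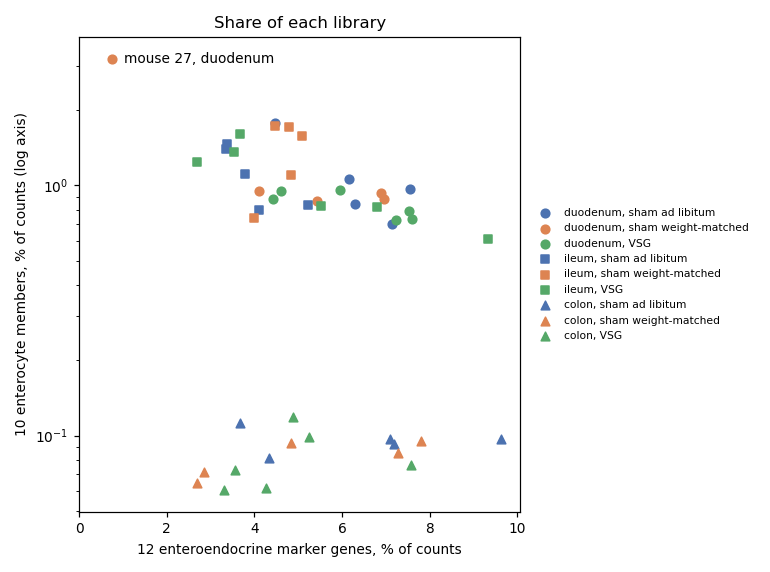
Share of all counts held by the 10 enterocyte genes (vertical log axis, percent) against the share held by 12 enteroendocrine marker genes (horizontal axis, percent), with 1 point per library, shapes for regions and colours for surgery groups. The colon libraries lie between 0.0605% and 0.118% and the others at 0.611% or above, and the duodenum library of mouse 27 stands alone at 3.21% enterocyte and 0.753% enteroendocrine counts.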

How the data were processed

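RNA of sorted cells was measured in 48 libraries made with a stranded total RNA kit and sequenced single-end. The deposited values are raw read counts per gene, which the authors made with STAR 2.5.1 on GRCm38 and Ensembl release 91; other counting settings were not given in the sources used here. Total counts ranged from 4648651 to 17182463, so levels of a few counts carry wide counting error. Ensembl IDs were matched to GENCODE M21 for 53360 of 53465 genes, and exon lengths were taken from it.

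Genes were filtered with filterByExpr (15126 kept), scaled by TMM and fitted with edgeR 4.0.16 (R 4.3.3) with 9 region and surgery means, by the robust quasi-likelihood test with Benjamini-Hochberg adjustment at 0.05. DESeq2 1.42.0 and limma 3.58.1 voom were alternatives, as were another filter or none, total counts alone, the first library index as a covariate, fits without each mouse, and fits without the libraries in doubt. Correlations, spread and likeness without such libraries were added after seeing the data. The fitting script was tested on simulated counts. Correlations used log2(CPM + 0.5) in scipy 1.17.1 and numpy, with two-sided permutation tests of 100000 resamples. The 10 genes and the lists were chosen with earlier results of these data known. Genes of the 4 lists were named as the 3 most changed per direction in each list and comparison, of which a part is given, with any list gene called in a surgery comparison and the 8 genes most like the members by Pearson's r.

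The mouse number marks libraries of the same animal. Over 46 such pairs, deviations from the group means correlated with a median of 0.111 (-0.0704 to 0.391), and a fit with the mouse as a replicate block was an alternative. Surgery groups held different mice, and within a group each mouse is 1 replicate per region.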

Additional observations from a re-analysis of the deposited data

Results flagged for a closer look

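In 90 sets of 5 or 6 libraries (each gene in each region and surgery group), the most distant library was compared with the range of its group, a rule that chance meets in about 1 of 20 sets. It was met in 10. Of these, 8 were the duodenum library of sham weight-matched mouse 27, which was high: Apoa1 was at 8680 CPM (754 to 982 CPM in the other 4), Apoa4 at 14700 CPM (828.9 to 1740 CPM), Apob at 7690 CPM (1310 to 1650 CPM), Apoc3 at 150 CPM (46.3 to 57.4 CPM), Fabp2 at 2760 CPM (218 to 342 CPM), Mttp at 3990 CPM (384 to 547 CPM), Alpi at 3440 CPM (227 to 447 CPM) and Anpep at 5710 CPM (752 to 1190 CPM). In the same library the enteroendocrine markers were at their lowest and the Paneth, immune, colonocyte, goblet and tuft cell markers at their highest of the 16 duodenum libraries. The part of these cells in the levels of the 10 genes was not tested.

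The other two were low. Apoa4 was at 927 CPM in the duodenum of VSG mouse 11, against 1760 to 2250 CPM in the other 5 VSG mice, and Sis was at 95.1 CPM in the colon of sham weight-matched mouse 29, against 210 to 247 CPM in the other 4. The latter library is the one through which Sis overlapped the VSG colon libraries.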

How the results depend on the processing

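All 10 genes were called lower in the colon than in either part of the small intestine under every alternative run, and the mouse as a replicate block left 10 calls in each. For ileum against duodenum the count was 5 with the mouse as a fixed replicate block, 6 with it as a random one, and 5 to 7 when single mice were left out. There the first index as a covariate turned Apoa1 to -0.50 and Apob to -0.83, and Mttp turned to 0.18 without the duodenum library of mouse 27 (-0.35 to 0.21 without single mice). The index fit kept that library and does not separate the index from it.

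For VSG against sham weight-matched mice in the mean of regions, the count of 1 went to 0 with no filter, with voom and the random replicate block, with counts summed per mouse and with mouse 12 by its code, and was 0 to 1 without single mice (0 without 18, 21 or 28). In the duodenum it went to 0 with total counts alone, no filter, voom, the compared libraries alone, the index covariate, without the duodenum library of mouse 27 or both doubtful libraries of mouse 12, and with mouse 12 by its code, went to 2 with DESeq2, and was 0 to 2 without single mice. With mouse 12 by its code, 2 members were called in the colon for VSG and for sham weight-matched against sham ad libitum mice. That fit puts its ileum-labelled library in the colon, above the colon libraries of every other mouse for all the members.

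Without the duodenum library of mouse 27, Apob after VSG against sham weight-matched mice turned to 0.045 (-1.02 to 0.045 without single mice). Between the sham groups Fabp2 turned to -0.29 (-0.29 to 1.43 without single mice) and Mttp to -0.19 (-0.19 to 1.32), and 14 duodenum pairs passed by r, an alternative chosen after seeing the data. In the edgeR fit without that library Apoa1 (0.38) and Apoa4 (0.35) turned after VSG against sham weight-matched mice, and Apoa1 (-0.63), Apoa4 (-0.63), Apob (-0.34), Apoc3 (-0.41) and Fabp1 (-0.57) turned between the sham groups. The causes were not tested. Depth limits Apoc3 and Fabp1 in the colon, at 0 to 15 and 3 to 35 counts per library.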
